A study of Mus musculus with 48 samples.

Results

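The livers described here were those of mice whose hepatocytes carried mutant beta-catenin without MYC, called B, taken 4 days after induction and compared with WT livers of the same day. Members were chosen by genotype and day from the sample labels: 3 B mice and 3 WT mice, each with a library of ribosome-protected fragments (RPFs) and a library of cytoplasmic RNA, which gave 12 of the 48 libraries and 6 of the 24 mice of the series. B mice had the genotype Ctnnb1ex3/+, in which Cre removes exon 3 from one allele of the beta-catenin gene and the other allele stays intact, and WT mice were wild-type. Both groups were male by the labels, on a mixed C57BL/6 background, 2 to 4 months old and at least 20 g in weight, and both received AAV8.TBG.PI.Cre.rBG at 2e+11 genome copies per mouse. The TBG promoter drives Cre in hepatocytes only, so other liver cells kept an unrecombined gene, and WT mice carried the virus too but no floxed allele. Each library came from one mouse, and the tissue was whole liver. RPFs are the pieces of mRNA that a translating ribosome shields from nuclease, so the RPF level of a gene reports how many ribosomes sit on its mRNA, and translational efficiency (TE) is the RPF level relative to the RNA level.

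Beta-catenin is the transcriptional effector of the canonical Wnt pathway. Without a Wnt signal, a complex that holds Axin and Apc marks it for destruction through phosphorylation of residues encoded by exon 3. Protein lacking these residues escapes destruction, enters the nucleus and binds TCF/LEF factors on target genes, several of which encode inhibitors of the pathway. In the liver lobule, Wnt signals from endothelial cells around the central vein keep the pathway active in the neighbouring hepatocytes, called zone 3, which make glutamine, synthesise bile acids and metabolise drugs. Hepatocytes around the portal vein, called zone 1, run the urea cycle, gluconeogenesis and the breakdown of several amino acids.

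Levels are given in CPM, counts relative to a common library total, scaled by the trimmed mean of M-values (TMM) within each library type, and each group of values lists mice 1, 2 and 3 of a group in order. Changes are log2 fold changes of B over WT fitted by edgeR, with their standard error (SE), and a gene was called at a Benjamini-Hochberg adjusted p under 0.1 over all genes tested. RPF totals of the 6 mice lay between 9742197 and 12739173 counts and RNA totals between 5009967 and 5908324. The 14 defining hepatocyte markers were abundant in both groups and summed lower in B without overlap, at 125000 to 132600 CPM in WT and 96740 to 117900 CPM in B in RNA. Of these markers, 3 were called lower and 1 higher in RNA, and 6 lower and 1 higher in RPFs, against 3.73% lower and 4.41% higher of all genes tested in RNA and 6.26% and 6.21% in RPFs. The largest fall among them, -1.27 in RNA and -0.95 in RPFs on the log2 scale, was that of Fgb, a fibrinogen chain described below with the acute phase proteins.

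At the RNA level, 485 of 10993 genes were higher in B (4.41%) and 410 lower (3.73%). At the RPF level, 687 of 11058 genes were higher (6.21%) and 692 lower (6.26%). Changes of at least 2-fold were called in 135 higher and 87 lower genes for RNA, and in 172 higher and 130 lower genes for RPFs. The size of a called change was moderate, with a median of 0.65 for RNA and 0.58 for RPFs on the log2 scale. The median change of all genes tested was -0.01 in both. Single mice set part of these counts: in RNA, 231 genes were lower without WT mouse 1, 317 higher and 258 lower without WT mouse 3, 323 and 214 without B mouse 2, and 265 lower without B mouse 3. In RPFs, 407 were higher and 359 lower without WT mouse 1, 457 and 431 without WT mouse 3, and 457 and 406 without B mouse 2.

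RNA and RPF changes went together. Of 10237 genes tested in both, 675 were called in both, and 674 of these moved the same way (366 higher, 308 lower). The genes higher in both had a median log2 change of 0.70 in RNA and 0.69 in RPFs, and those lower in both had -0.68 and -0.71. Another 195 genes were called in RNA only, 184 of them with the same sign in RPFs, and 650 in RPFs only, 601 of them with the same sign in RNA.

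**Figure D1:**
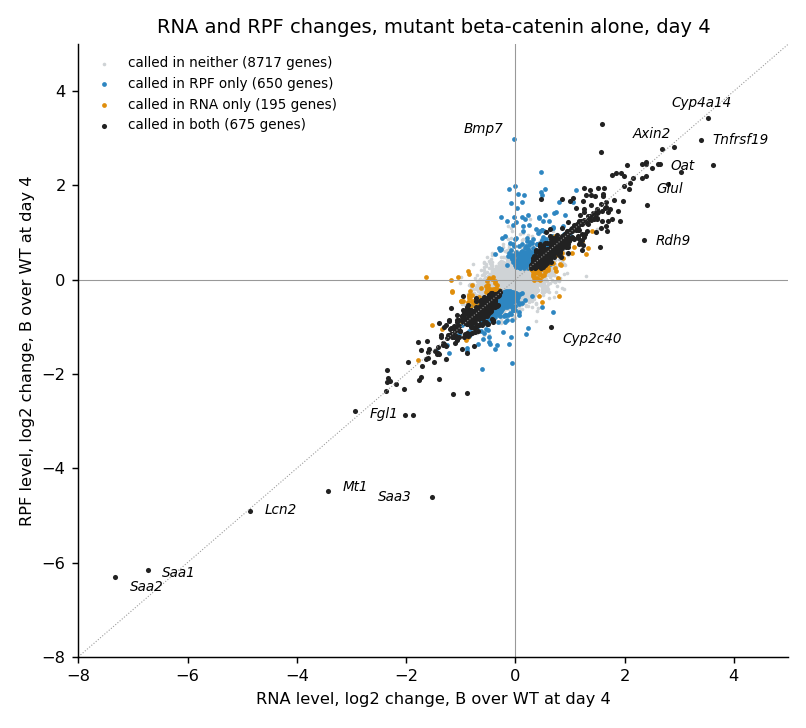
Each point is one of the genes tested in both library types, with the log2 change of B over WT at day 4 in RNA on the x axis and in RPFs on the y axis, coloured by where it was called. The 675 genes called in both lie along the dotted line of equal change, from Saa2 at the lower left to Cyp4a14 at the upper right, and Bmp7, Rdh9 and Cyp2c40 lie off it.

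Part of the Wnt feedback and target genes rose. Of 22 members tested from a list of 30 Wnt feedback and target genes, 11 were higher and 1 lower in RNA, and 10 were higher and 1 lower in RPFs, against 4.41% and 6.21% of all genes tested called higher. The list's median log2 change was 0.85 in RNA and 0.70 in RPFs. It moved with single mice, to 0.25 in RNA when WT mouse 3 was left out and to 0.34 or 0.36 when B mouse 2 or 3 was. In RPFs it was 0.38 without B mouse 2. The median also moved with the filter on low counts. It was 0.10 in RNA and 0.36 in RPFs with no filter, and 0.29 and 0.35 with at least 10 counts in every library. The feedback inhibitors form the first group.

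Axin2 (GRCm39 in GENCODE vM39, chr11:108811169-108841609), a scaffold of the destruction complex and a direct target of beta-catenin, had RNA levels of 2.27, 2.57 and 3.0 CPM in WT and 13.0, 24.5 and 13.3 CPM in B. Its RPF levels were 2.50, 3.10 and 2.97 CPM in WT and 15.9, 23.5 and 18.8 CPM in B. The log2 change was 2.69 in RNA (SE 0.31, adjusted p = 2.6e-04) and 2.77 in RPFs (SE 0.19, adjusted p = 3.1e-05). Every B mouse was above every WT mouse in both library types.

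Notum encodes a secreted enzyme that inactivates Wnt ligands. Its RNA level was 7.77, 9.71 and 9.99 CPM in WT and 18.7, 31.3 and 27.9 CPM in B, a log2 change of 1.49 (SE 0.20, adjusted p = 7.1e-04), and its RPF level was 22.5, 24.0 and 26.8 CPM in WT and 56.0, 81.9 and 70.8 CPM in B, a change of 1.51. Znrf3 and Rnf43, membrane ubiquitin ligases that remove Wnt receptors, rose in RNA by 2.74-fold and 4.22-fold and in RPFs by 3.44-fold and 3.78-fold. Nkd1, an inhibitor acting on Dishevelled, rose 2.95-fold in RNA and 6.53-fold in RPFs, with RPF levels of 0.808, 0.748 and 0.693 CPM in WT and 3.78, 6.06 and 5.08 CPM in B. For all of these genes the B mice lay above the WT mice without overlap in either library type.

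Lgr5, a receptor for R-spondins that marks cells with strong Wnt signalling, had RNA levels of 6.25, 5.68 and 7.19 CPM in WT and 20.2, 31.7 and 33.4 CPM in B, and RPF levels of 15.4, 15.8 and 15.3 CPM in WT and 51.1, 74.9 and 80.4 CPM in B. Its log2 change was 2.15 in RNA (SE 0.21) and 2.15 in RPFs (SE 0.16), with an adjusted p of 9.3e-05 and 4.3e-05. The RPF levels of the 3 WT mice lay within 1 CPM of each other.

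Tnfrsf19, a receptor of the tumour necrosis factor family, rose from RNA levels of 0.379, 1.65 and 2.20 CPM in WT to 9.58, 19.3 and 16.4 CPM in B, which was among the largest fitted rises (3.40, SE 0.40). The transcription factor Sp5, a repressor of Wnt targets, was close to the limit of detection in WT, with 1, 1 and 3 RNA counts, and had 12, 48 and 11 counts in B. The ratio of the summed counts of Sp5, per library total, was 15.0, with a 95% exact interval of 6.12 to 47.5 that covers counting error only. Tcf7, a TCF/LEF factor, rose 3.04-fold in RNA, and Lect2, a secreted hepatocyte protein, rose from 64.8, 69.6 and 56.5 CPM to 125, 256 and 294 CPM in RNA and from 75.1, 75.4 and 62.0 CPM to 125, 258 and 306 CPM in RPFs. Tbx3, a transcription factor, rose in RNA (log2 change 1.41, adjusted p = 0.011), while its RPF change of 1.03 did not pass (adjusted p = 0.11), with RPF levels of 23.8, 28.7 and 18.8 CPM in WT and 20.9, 76.8 and 48.3 CPM in B, where mouse 1 lay among the WT mice and without it the change passed.

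The members that did not pass include genes often used as Wnt targets in other tissues. Ccnd1, which encodes cyclin D1, had RNA levels of 62.7, 66.9 and 69.9 CPM in WT and 55.6, 67.0 and 66.7 CPM in B (log2 change -0.08, SE 0.10). The RNA change of Prox1 was -0.33 (SE 0.25). Myc, a Wnt target in other tissues that is not on this list, had an RNA change of 0.30 (SE 0.19) and did not pass either. Cd44, a cell adhesion receptor, was the member called lower, from 13.8, 15.2 and 14.2 CPM to 8.90, 8.87 and 10.7 CPM in RNA. Ctnnb1 itself (chr9:120757422-120789579) had 230.0, 226 and 224 CPM in WT and 196, 192 and 206 CPM in B in RNA and was not called (adjusted p = 0.24), although all B mice lay below all WT mice, and its RPF levels of 347, 327 and 339.7 CPM and 298, 346 and 343 CPM overlapped. The deletion removes 1 exon from 1 allele, and counts over the whole gene do not show it, so Ctnnb1 is no check of the genotype here.

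RefSeq promoter sequences (GRCm38.p6, 250 bases before to 50 after the start) were at hand for 18 of the 30 genes. CTTTGAT or its reverse complement ATCAAAG, the core that TCF/LEF factors bind, was searched on both strands in the 250 bases before each start. It stood before 4 of the 28 starts of these genes and in 3.21% of all 32851 promoters of the table. Counted by gene, it stood before at least 1 start in 4 of the 18 and in 3.72% of all genes of the table, which had 1.22 starts per gene against 1.56 here. The sequences of the 3 called members that hold it are shown, 5' to 3' on the strand of the gene and ending at the base before the start, with the motif in capitals. They lie at chr2:70474673-70474922 on the plus strand (Sp5), chr14:61037988-61038237 on the minus strand (Tnfrsf19) and chr13:56548539-56548788 on the minus strand (Lect2), and the motif ends 97, 195 and 25 bases before the start.
Sp5: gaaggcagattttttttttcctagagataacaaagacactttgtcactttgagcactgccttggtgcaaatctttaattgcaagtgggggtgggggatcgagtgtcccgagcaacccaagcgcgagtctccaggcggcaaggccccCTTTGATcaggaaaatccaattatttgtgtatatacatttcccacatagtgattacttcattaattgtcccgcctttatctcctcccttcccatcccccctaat
Tnfrsf19: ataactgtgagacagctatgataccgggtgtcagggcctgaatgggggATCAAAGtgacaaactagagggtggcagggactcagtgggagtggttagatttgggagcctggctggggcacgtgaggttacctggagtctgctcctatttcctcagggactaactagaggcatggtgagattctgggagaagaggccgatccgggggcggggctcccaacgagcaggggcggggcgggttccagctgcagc
Lect2: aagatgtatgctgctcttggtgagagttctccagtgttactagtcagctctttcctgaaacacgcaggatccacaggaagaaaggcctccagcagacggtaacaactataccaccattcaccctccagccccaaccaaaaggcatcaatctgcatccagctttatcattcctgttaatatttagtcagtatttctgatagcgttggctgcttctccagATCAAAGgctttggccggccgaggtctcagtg
A match is a description of the letters, and the libraries hold no measurement of binding.

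**Figure D2:**
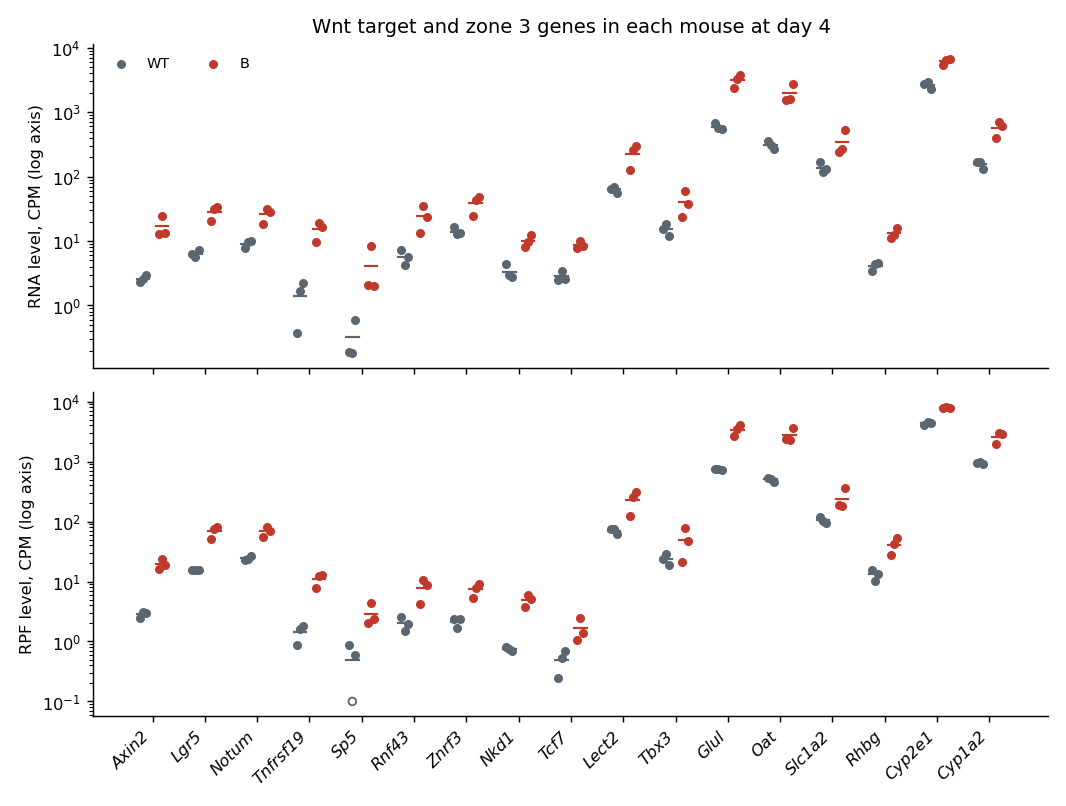
RNA level (top) and RPF level (bottom) in CPM on a log axis for 11 Wnt target genes and 6 zone 3 genes, with one point per mouse, WT in grey, B in red, and a bar at the mean of each group. Open points at the foot mark a value of 0. B lies above WT without overlap in both library types for every gene shown except Tbx3 in RPFs.

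Zone 3 genes rose almost as a group. All 40 members of the list were tested, and 34 were higher in RNA and 36 in RPFs, with a median log2 change of 1.21 and 1.06, against 4.41% and 6.21% of all genes called higher. Only 2 members, Cyp3a11 and Cyp3a25, had a change below 0, and neither was called. Lgr5, Axin2, Lect2 and Tbx3 belong to this list and to the Wnt list. Since zonal genes differ between hepatocytes of one lobule, a whole-liver level cannot tell more cells of a type from more RNA per cell.

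Glul (chr1:153775690-153785469) encodes glutamine synthetase, which condenses ammonia with glutamate in the hepatocytes next to the central vein. Its RNA level was 669, 562 and 550.2 CPM in WT and 2335, 3276 and 3764 CPM in B, and its RPF level 747, 758 and 722 CPM and 2681, 3462 and 4025 CPM. The rise was 5.24-fold in RNA and 4.57-fold in RPFs (log2 SE 0.17 and 0.14). The WT mice were close together and every B mouse was more than 3 times the highest WT mouse.

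Oat, ornithine aminotransferase, supplies glutamate in the same cells. It went from 356, 308 and 272 CPM in WT to 1563, 1594 and 2729.8 CPM in B in RNA (log2 change 2.65, adjusted p = 2.6e-05) and from 534, 517 and 460.4 CPM to 2362, 2298 and 3558 CPM in RPFs. The glutamate transporter Slc1a2 and the ammonium transporter Rhbg rose 2.47-fold and 3.14-fold in RNA. In the list of 15 genes of glutamine and ammonia handling, 8 were higher in RNA (4.41% of all genes) and 7 in RPFs (6.21%). Gls2, the liver glutaminase of zone 1, which works in the opposite direction, had 133, 127 and 136 CPM in WT and 171, 87.3 and 134 CPM in B, and its log2 change was -0.02 (SE 0.18).

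Among the enzymes of drug and sterol metabolism, Cyp2e1, which oxidises ethanol and paracetamol, went from 2690.0, 2977 and 2314 CPM to 5468, 6504 and 6751 CPM in RNA, a 2.34-fold rise, and rose 1.79-fold in RPFs. Cyp1a2 rose from 167, 167 and 131 CPM to 401, 713 and 617 CPM in RNA (3.70-fold) and 2.76-fold in RPFs. Its regulator Ahr, the aryl hydrocarbon receptor, rose 2.39-fold in RNA. Rgn, a calcium-binding protein, Gulo, which makes ascorbate, and Aldh1a1, a retinal dehydrogenase, rose 2.42-fold, 3.34-fold and 1.59-fold. The fitted TE change of zone 3 genes had a median of -0.10, with 27 of 40 below 0, and edgeR called none of them (2 at an unadjusted p under 0.05, none by DESeq2). With the mouse as a block, edgeR called the TE of Cyp2c37 lower (-0.50, adjusted p = 0.026).

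In the Wnt and zonal genes, mouse 1 was the B mouse nearest to WT. It had the lowest RNA level of the B mice in 10 of the 11 Wnt members called higher and in 30 of the 34 zone 3 members, and the lowest RPF level in 10 of 10 and 26 of 36. It also had the highest RNA level in 10 of the 12 zone 1 genes called lower. Without it, zone 3 genes higher in RNA came to 35 and in RPFs to 37 (with 2 others lower), and zone 1 genes lower to 18 and 20. The recombined share of hepatocytes was not measured in these files.

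A minority of zone 1 genes were called lower. Of 36 members tested in RNA, 12 were lower and 2 higher (median -0.29), and of 38 in RPFs, 13 were lower and 2 higher (median -0.31), against 3.73% and 6.26% of all genes called lower. The count in RNA was 7 without B mouse 2 or without B mouse 3, and in RPFs it was 7 without WT mouse 3 and 8 without B mouse 2. Hpx, the carrier of free haem, is also on the list of acute phase proteins.

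Pck1, the enzyme that commits oxaloacetate to gluconeogenesis, fell the most of the zone 1 genes. Its RNA level was 1198, 1778 and 1275 CPM in WT and 505, 302 and 483 CPM in B (log2 change -1.73, SE 0.20, adjusted p = 2.4e-04), and its RPF change was -1.49. Cyp2f2, a lung- and liver-expressed P450 of zone 1, had 1309, 1326 and 1249.7 CPM in WT and 1063, 653 and 779 CPM in B, with B mouse 1 near the WT mice. Of 10 urea cycle genes, 2 were higher (4.41% of all genes in RNA, 6.21% in RPFs) and 1 lower (3.73%, 6.26%) in each library type. Cps1 (-0.24) and Ass1 (-0.02) did not pass, while Slc25a13 and Car5a, which supply aspartate and bicarbonate, rose by 0.47 and 0.59. The list summed lower in B, at 6552 to 6833 CPM in WT and 5306 to 6026 CPM in B in RNA. In RPFs it was 11440 to 12600 CPM and 9862 to 11010 CPM. On a scale set over both days, Arg1, arginase, had 939, 927 and 1036 RNA CPM in WT and 598, 424 and 558 CPM in B.

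Several classical zone 1 genes did not pass at this day. Hal, the histidine ammonia lyase, had RNA levels of 203, 239 and 264 CPM in WT and 295, 151 and 158 CPM in B, so that B mouse 1 lay above all WT mice and the other B mice below them. Sds, serine dehydratase, with 20.3, 18 and 21.2 CPM and 27.2, 8.18 and 18.7 CPM, and Etnppl, with 66.5, 81.2 and 67.7 CPM and 122, 63.2 and 68.9 CPM, also overlapped. Their log2 changes were -0.23 (SE 0.21), -0.14 (SE 0.29) and 0.23 (SE 0.20).

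**Figure D3:**
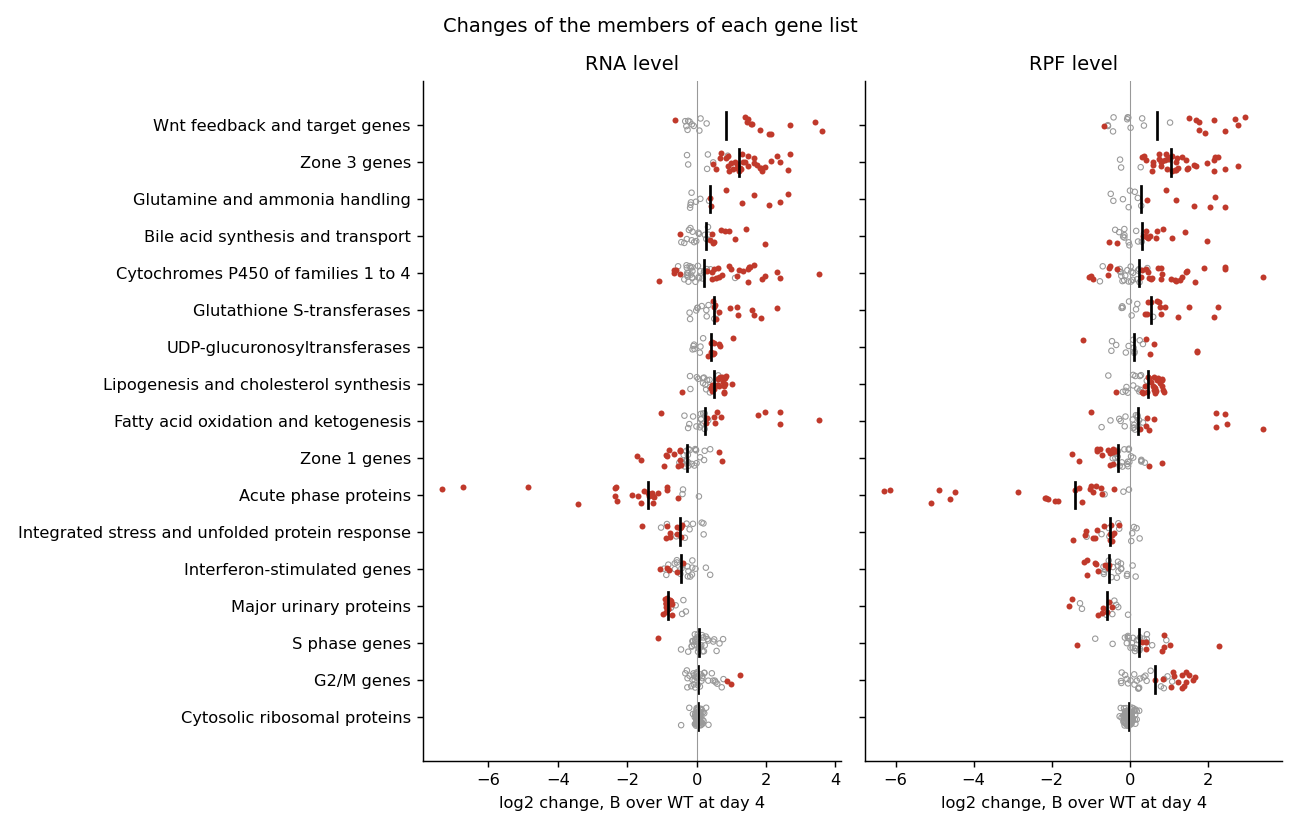
Log2 change of B over WT at day 4 for the tested members of 17 gene lists, RNA at left and RPFs at right, with called members filled in red, other members as open grey circles, and a black bar at the median of each list. Zone 3 genes sit to the right of 0, acute phase proteins to the left, G2/M genes are shifted in RPFs more than in RNA, and cytosolic ribosomal proteins sit at 0.

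Families of detoxifying enzymes, which share members with the zone 3 list, held more genes called higher than lower. Over all genes tested, 4.41% were called higher and 3.73% lower in RNA, and 6.21% and 6.26% in RPFs. Of 55 cytochromes P450 of families 1 to 4 tested in RNA, 23 were higher and 5 lower, and of 51 in RPFs, 23 were higher and 7 lower. Of 23 glutathione S-transferases, which conjugate electrophiles, 12 were higher in RNA (median 0.51) and of 21 in RPFs 13 (median 0.55). Gstm2 went from 26.5, 35.0 and 21.8 CPM to 100.3, 174 and 143 CPM in RNA and Gstm3 from 22.0, 24.9 and 15.8 CPM to 65.5, 106 and 56.1 CPM. Of 17 UDP-glucuronosyltransferases, 10 were higher in RNA, and in RPFs 5 were higher and 1 lower. Of 6 sulfotransferases, 2 were higher in each library type. Cyp2c55 rose 5.02-fold in RNA and 5.48-fold in RPFs. These families hold near-identical copies, so the split of counts among members is uncertain.

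The gene of the entry step of bile acid synthesis was higher in RNA and RPFs. Cyp7a1, the rate-limiting enzyme, had RNA levels of 131, 73.3 and 161 CPM in WT and 286, 642 and 521 CPM in B and RPF levels of 94.7, 78.3 and 120.4 CPM and 253, 522 and 389 CPM, a log2 change of 1.98 (SE 0.29) and 1.99 (SE 0.24). Of 26 bile acid genes tested, 10 were higher and 1 lower in RNA, and 12 higher and 2 lower in RPFs, where the shares of all genes were 4.41% and 3.73%, and 6.21% and 6.26%. The uptake carriers Slco1a4 and Slco1b2 and the efflux pump Abcc2 rose by 1.41, 1.10 and 0.70 in RNA. Baat, which conjugates bile acids with taurine, fell by 0.47 on the log2 scale. Abcb11, the bile salt export pump, did not pass (0.05, SE 0.10).

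Many genes of cholesterol and fatty acid synthesis rose by small amounts. Of 37 genes tested in RNA, 21 were higher and 1 lower, with a median log2 change of 0.50, and of 38 in RPFs, 23 were higher and 1 lower, with a median of 0.45. Of all genes, 4.41% were higher and 3.73% lower in RNA, and 6.21% and 6.26% in RPFs. Hmgcs1, which makes the precursor of mevalonate, rose from 372, 274 and 312 CPM to 553, 770.3 and 614 CPM in RNA. Hmgcs1 was the only member past 2-fold in RNA, and none was in RPFs. The later enzymes Fdps, Fdft1, Lss, Nsdhl and Cyp51 rose by 0.82, 0.79, 0.83, 0.83 and 0.66. Srebf1, the transcription factor of fatty acid synthesis, rose by 0.78 and Fasn by 0.76, while Acaca (0.05) and Scd1 (0.27) did not pass. Insig2, which restrains SREBP processing, was the member that fell (-0.41).

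Cyp4a14 (chr4:115343397-115353344), a fatty acid omega-hydroxylase and a known target of the fatty acid receptor PPARA, had RNA levels of 3.03, 1.28 and 2.20 CPM in WT and 20.7, 11.3 and 43.9 CPM in B and RPF levels of 4.85, 2.46 and 3.56 CPM and 31.5, 15.6 and 72.3 CPM. Its log2 change was 3.52 in RNA (SE 0.51, adjusted p = 0.0013) and 3.43 in RPFs (SE 0.52). The groups did not overlap, although the B mice spread over a wide range. Without B mouse 3, the highest, the changes were 2.88 and 2.67.

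Cyp4a10 rose 5.26-fold in RNA. The acyl-CoA thioesterase Acot1 went from 6.82, 3.66 and 4.99 CPM to 28.1, 25.2 and 29.0 CPM in RNA, and Acot3 from 2.50, 2.24 and 1.78 CPM to 11.5, 10.1 and 14.4 CPM in RPFs. Pdk4, a kinase that turns off pyruvate dehydrogenase, went from 12.5, 10.4 and 13.8 CPM to 32.7, 70.1 and 43.0 CPM. No list of PPARA targets was tested, and known targets went different ways. Angptl4, an inhibitor of lipoprotein lipase, fell by 1.03 on the log2 scale in RNA, and Ppara itself (-0.01) and Cpt1a (-0.21) did not pass. Over 27 genes of fatty acid oxidation and ketogenesis, 11 were higher and 1 lower in RNA, against 4.41% and 3.73% of all genes.

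Acute phase proteins, the plasma proteins that hepatocytes release in inflammation, were lower in B. Of 25 tested, 22 were lower in RNA and 22 in RPFs, with a median log2 change of -1.40 in both, where 3.73% and 6.26% of all genes were lower. Their summed RNA level was 30310 to 51920 CPM in WT and 14750 to 20420 CPM in B, and the summed RPF level 51080 to 70780 CPM and 25310 to 35080 CPM.

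Saa1 (chr7:46389916-46392547), a serum amyloid A, had RNA levels of 579.6, 52.2 and 530.3 CPM in WT and 3.59, 4.00 and 3.32 CPM in B, and RPF levels of 1229, 150.1 and 1270.2 CPM and 10.1, 10.5 and 16.6 CPM. The log2 change was -6.73 in RNA (SE 0.80, adjusted p = 2.9e-04) and -6.15 in RPFs (SE 0.70). WT mouse 2 was far below the other WT mice and still above every B mouse. Saa2, a near-identical neighbour whose counts may be split with Saa1, had 585, 27.1 and 581 CPM in WT and 1.88, 3.13 and 2.40 CPM in B. Lcn2, the siderophore-binding lipocalin, had 29.7, 5.31 and 23.0 CPM and 0.513, 0 and 1.48 CPM.

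The abundant members differed with less spread. Haptoglobin (Hp), which binds free haemoglobin, had RNA levels of 4192, 2466 and 2917 CPM in WT and 759, 582 and 555 CPM in B (log2 change -2.34, SE 0.19, adjusted p = 3.4e-05). Fgl1, a fibrinogen-like protein that was not on the list, went from 626, 357 and 501 CPM to 83.3, 59.2 and 52.6 CPM in RNA. Apcs and Orm1 of the list fell to log2 changes of -2.29 and -1.36, and Lbp, which carries bacterial lipopolysaccharide and was not on it, to -2.18. The fibrinogen chains Fga, Fgb and Fgg changed by -1.30, -1.27 and -1.22 in RNA and by -1.01, -0.95 and -0.88 in RPFs. Hamp, which encodes the iron hormone hepcidin, did not pass (0.07, SE 0.28).

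Steap4, a metalloreductase on the list, and Scara5, a ferritin receptor outside it, changed by -2.35 and -2.37 in RNA. Metallothionein Mt1 had 50.6, 6.05 and 9.99 CPM in WT and 2.05, 1.22 and 2.95 CPM in B, and its change of -3.42 was -1.95 without WT mouse 1. In RPFs Mt2 had 57.8, 3.10 and 10.7 CPM in WT and 1.21, 0.323 and 0.589 CPM in B, a change of -5.10 that was -3.29 without WT mouse 1. Steap4 was also highest in WT mouse 1, and without it changed by -1.71. Nos1ap, an adaptor of nitric oxide synthase, had RPF levels of 19.9, 4.91 and 17.2 CPM in WT and 2.82, 2.18 and 2.95 CPM in B (log2 change -2.42).

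Markers of other cells moved in part with this group. The summed RNA level of 15 Kupffer cell and macrophage markers was 469.9 to 515.3 CPM in WT and 352.5 to 444.1 CPM in B, and 6 of 15 were lower in RNA and 3 in RPFs, against 3.73% and 6.26% of all genes. Among them Clec4f, a marker of Kupffer cells, had 68.2, 73.8 and 79.5 CPM in WT and 50.1, 42.8 and 54.8 CPM in B. Of 18 lymphoid and neutrophil markers, 2 could be tested in RNA and 4 in RPFs, and the neutrophil proteins S100a8 and S100a9 were lower in RPFs (-1.75 and -2.39), with S100a9 at 13.7, 4.38 and 11.1 CPM in WT and 3.22, 1.37 and 1.11 CPM in B. Endothelial markers summed to 508.3 to 536.2 CPM in WT and 470.1 to 506.9 CPM in B in RNA, and stellate cell and fibroblast markers to 479.7 to 505.7 CPM and 433.2 to 472.5 CPM. In RPFs both overlapped, endothelial markers at 982.4 to 1096 CPM in WT and 1027 to 1128 CPM in B, and stellate cell and fibroblast markers at 1041 to 1107 CPM and 1004 to 1098 CPM. The 8 cholangiocyte markers tested held 1 called lower, Spp1 (-0.75), with summed levels of 97.2 to 166.0 CPM in WT and 111.2 to 123.9 CPM in B in RNA, which overlapped, and of 84.8 to 126.2 CPM and 59.0 to 65.5 CPM in RPFs, which did not. Blood cell markers summed to 445.8 to 482.3 CPM and 346.5 to 672.2 CPM in RNA. The part of these cells in the fall of the acute phase genes was not tested.

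The same genes stood differently at day 10, in other mice of the same genotypes. On a scale set over the 12 RNA libraries of both days, Saa1 in WT was 624, 56.2 and 580.2 CPM at day 4 and 5.24, 25.6 and 12.9 CPM at day 10, and in B 3.88, 4.32 and 3.59 CPM at day 4 and 56.9, 494 and 110.3 CPM at day 10. Hp in WT was 4516, 2654 and 3192 CPM at day 4 and 1240.0, 1592 and 1143 CPM at day 10, and in B 819.7, 629 and 599.5 CPM and 759, 1387 and 1290.0 CPM. WT livers thus held more Saa1 and Hp RNA at day 4 than at day 10 in each mouse. On the same scale, the summed RNA level of the acute phase list was 32620 to 55930 CPM in WT and 15930 to 22050 CPM in B at day 4. At day 10 it was 23810 to 31890 CPM in WT and 13900 to 21590 CPM in B, still lower in B. By gene, 8 of 25 were higher in B at day 10 and 5 lower in RNA (median 0.12), against 8.14% and 7.48% of all genes. The B effect was higher at day 10 than at day 4 for 17 of 26 acute phase genes in RNA and 17 of 26 in RPFs, with a median difference of 1.77 and 1.62. Over all genes, the B effect was higher at day 10 in 4.3% and lower in 5.02% in RNA, and in 8.39% and 8.8% in RPFs.

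**Figure D4:**
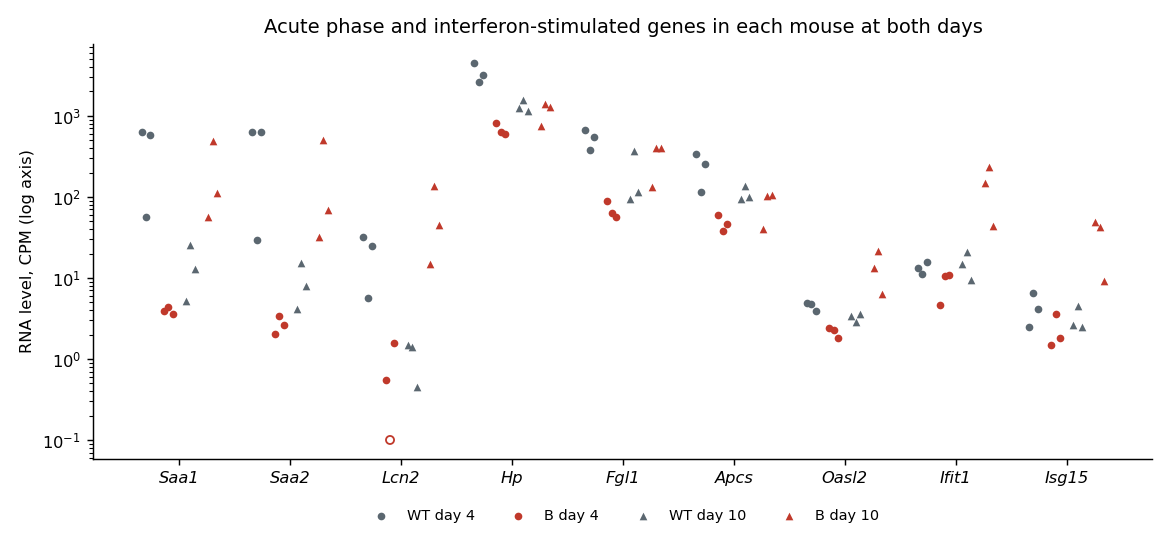
RNA level in CPM on a log axis of 6 acute phase genes and 3 interferon-stimulated genes, with one point per mouse, WT in grey, B in red, circles for day 4, triangles for day 10, and an open symbol at the foot for a value of 0. The B mice of day 4 lie below the WT mice of day 4 for the 6 acute phase genes, and for the interferon-stimulated genes the B mice of day 10 lie highest.

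In the list of the integrated stress and unfolded protein response, 11 of 21 genes were lower in RNA (median -0.47) and 14 of 25 in RPFs (median -0.50), against 3.73% and 6.26% of all genes. Hspa5, the main chaperone BiP, had 2253, 1432 and 1782 CPM in WT and 926, 977 and 1350.4 CPM in B in RNA, a change of -0.76 (SE 0.18). Creld2, Hyou1, Manf and Sdf2l1 changed by -1.57, -0.86, -0.89 and -0.76. The members that did not pass in RNA include Atf4 (0.15) and Asns (-0.20), of the amino acid arm of the response. The RNA count was 7 without WT mouse 1 and 6 without B mouse 2, and the RPF count was 9 without B mouse 2.

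Interferon-stimulated genes had a median change of -0.44 in RNA and -0.54 in RPFs, and 5 of 25 were lower in RNA and 9 of 27 in RPFs, against 3.73% and 6.26% of all genes. B mouse 1 lay farthest from WT, with a summed RNA level of 341 CPM beside 509 and 505 CPM in the other B mice and 541.1 to 567.4 CPM in WT, and without it the median was -0.23 in both library types. Oasl2, an antiviral protein, had 4.55, 4.40 and 3.60 CPM in WT and 2.22, 2.09 and 1.66 CPM in B. The calls were fragile: leaving out any one WT mouse left 1 in RNA, leaving out B mouse 1, 2 or 3 left 2, 2 or 3, DESeq2 called 2, and in RPFs 4 were left without WT mouse 1 or without WT mouse 3. At day 10 all 25 called genes of 26 were higher in B in RNA (8.14% of all genes), and the difference between days was called in 25 of 26, with a median of 2.61 (4.3% of all genes higher). On the scale of both days, Oasl2 was 4.90, 4.73 and 3.93 CPM in WT and 2.40, 2.25 and 1.79 CPM in B at day 4, and 3.37, 2.85 and 3.61 CPM and 13.2, 21.8 and 6.30 CPM at day 10.

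Major urinary proteins, abundant secreted carriers, were lower for 17 of 22 genes in RNA (median -0.84) and 8 of 16 in RPFs (median -0.59), beside 3.73% and 6.26% of all genes. Their summed RNA level was 186400 to 237900 CPM in WT and 93790 to 170700 CPM in B. The genes are near-identical, so the members do not count as separate observations. Sex-biased liver genes went both ways. In RNA 4 of 23 were higher and 4 lower, against 4.41% and 3.73% of all genes. In RPFs 6 of 21 were higher and 3 lower, against 6.21% and 6.26%. Among the lower ones, Selenbp2, with a male bias, had 727, 771 and 582 CPM in WT and 292, 175 and 202 CPM in B.

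Cdkn1a, which encodes the cell cycle brake p21, was lower in B, with RNA levels of 47.0, 48.0 and 39.5 CPM in WT and 7.02, 18.3 and 19.6 CPM in B and RPF levels of 72.2, 68.4 and 69.2 CPM and 11.7, 23.9 and 36.3 CPM (log2 change -1.60 and -1.54). In the list of p53 targets and apoptosis regulators, 5 of 23 were lower and 1 higher in RNA, and 6 of 24 lower and 2 higher in RPFs, against 3.73% lower and 4.41% higher of all genes in RNA and 6.26% and 6.21% in RPFs. The lower ones include Eda2r (-1.08), Fas (-0.74), Aen (-0.74) and Ccng1 (-0.47). Trp53 (-0.18) and Mdm2 (-0.14) did not pass.

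More cell cycle genes were called in RPFs than in RNA. Of 37 G2/M genes tested in RPFs, 14 were higher with a median log2 change of 0.64, and of 38 tested in RNA, 3 were higher with a median of 0.04, or 37.8% and 7.89% against 6.21% and 4.41% of all genes. S phase genes gave 8 higher and 1 lower of 34 in RPFs (median 0.24) and 1 lower of 34 in RNA (median 0.06), and the lower share in RNA, 2.94%, was below the 3.73% of all genes. The G2/M count in RPFs was 9 when WT mouse 1 or WT mouse 2 was left out, 7 without B mouse 2, 8 without B mouse 3 and 9 when 10 counts were required in every library. The G2/M median in RPFs was 0.25 under that filter and 0.93 with no filter, and in RNA it was 0.01 and 0.16.

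Top2a, which untangles chromosomes, had RNA levels of 43.6, 61.0 and 51.5 CPM in WT and 49.3, 48.4 and 63.7 CPM in B, which overlapped, and RPF levels of 2.42, 2.56 and 3.66 CPM and 4.83, 10.9 and 8.91 CPM, which did not. Its RPF change was 1.52 (SE 0.30, adjusted p = 0.011) and its RNA change 0.04 (SE 0.14). Kif11, a spindle motor, had 10.6, 13.7 and 13.4 CPM and 12.0, 13.0 and 13.1 CPM in RNA and 1.29, 1.50 and 1.19 CPM and 2.50, 3.64 and 3.17 CPM in RPFs. The helicase subunits Mcm5 and Mcm6 rose by 1.02 and 0.87 in RPFs with RNA changes of 0.13 and 0.00. Mki67, the proliferation marker, rose in both, from 4.17, 3.48 and 3.79 CPM to 7.02, 11.5 and 9.05 CPM in RNA and from 1.94, 1.07 and 2.28 CPM to 2.74, 7.11 and 4.72 CPM in RPFs. TE, which sets these readings against each other, was called for none of the 32 G2/M genes by edgeR (6 at an unadjusted p under 0.05, 1 by DESeq2). With the mouse as a block, edgeR called the TE of the members Top2a and Ect2 higher, by 1.45 and 1.18 on the log2 scale (adjusted p = 0.012 and 0.088). The RPF levels of these genes are low, at a few CPM.

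Few genes of the translation machinery were called. None of 84 cytosolic ribosomal protein genes was called by edgeR in RNA or of 80 in RPFs (1 and 2 at an unadjusted p under 0.05, none by DESeq2), and their changes lay between -0.45 and 0.34 in RNA and between -0.26 and 0.24 in RPFs. None of 35 genes of ribosome biogenesis and translation factors was called in either, none had an unadjusted p under 0.05, and DESeq2 called none. Of 20 aminoacyl-tRNA synthetases, 1 was higher and 1 lower in RNA and likewise in RPFs, near the shares of all genes (4.41% and 3.73%, and 6.21% and 6.26%), and of 77 mitochondrial ribosomal proteins in RPFs 1 was lower. Of 78 nuclear genes of oxidative phosphorylation, 4 were lower in RPFs (5.13%), a share below the 6.26% of all genes tested, and the list's median was -0.10.

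Among single genes, Afp, the fetal albumin that reappears in liver tumours, had 3, 2 and 2 RNA counts in WT and 16, 26 and 23 in B, and RPF levels of 1.05, 2.56 and 2.08 CPM and 5.72, 11.2 and 10.2 CPM (RPF log2 change 2.29, SE 0.33). Dct, an enzyme of melanin synthesis, went from 2.67, 2.56 and 2.77 CPM to 10.7, 14.2 and 16.2 CPM in RPFs. Cdh2, N-cadherin, rose from 131, 115 and 118 CPM to 182, 222 and 207 CPM in RNA, while Cdh1, E-cadherin, had an RNA change of -0.25 that did not pass and an RPF change of -0.35 that did (adjusted p = 0.050). Irs1, a docking protein of the insulin and IGF receptors, rose by 0.66 in RNA, Igfbp2 rose by 0.37 and Igfbp1 fell by 0.76 on the log2 scale. Igf1 (0.18) and Igf1r (-0.06) did not pass.

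Few genes were called in TE. Of 10237 genes tested, 3 were higher (0.0293%) and 2 lower (0.0195%), of which 2 higher and 2 lower ones are described. With the mouse as a block, which uses that the RPF and RNA libraries came from the same animal, 12 were higher and 16 lower, among them the same 3 and 2.

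Bmp7, a growth factor, had RNA levels of 22.7, 46.9 and 42.7 CPM in WT and 34.9, 35.8 and 41.0 CPM in B, which overlapped, and RPF levels of 0.889, 0.641 and 0.594 CPM and 3.70, 6.55 and 7.15 CPM, which did not (TE change 3.01, SE 0.48, adjusted p = 0.066). These WT RPF levels are low, so the size of the TE change of Bmp7 is uncertain. With at least 10 counts required in every library, 2 genes were called higher in TE and 2 lower. Atp11a, a phospholipid flippase, showed the reverse make-up, with RNA falling from 38.3, 16.7 and 32.0 CPM to 10.1, 8.53 and 9.23 CPM and RPFs at 23.3, 20.1 and 24.7 CPM and 24.2, 23.5 and 23.2 CPM (TE change 1.70, adjusted p = 0.080). When the RNA of only the isoform used for RPFs was counted, the TE change of Atp11a was 1.6 and not called (adjusted p = 0.21).

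Rdh9, a retinol dehydrogenase, rose from 11.4, 15.2 and 11.0 CPM to 48.3, 72.4 and 74.2 CPM in RNA and less in RPFs, from 56.7, 63.7 and 68.6 CPM to 85.8, 126 and 127 CPM (TE change -1.51, adjusted p = 0.080). Cyp2c40 rose in RNA from 93.0, 87.2 and 80.7 CPM to 120.5, 150.3 and 143 CPM and fell in RPFs from 5.90, 6.73 and 5.64 CPM to 2.01, 3.80 and 3.24 CPM (TE change -1.66, adjusted p = 0.017). Both have close paralogs, and RNA and RPFs were aligned in different ways, so their counts are uncertain. Leaving out 1 mouse at a time left 0 to 3 genes higher and 0 to 4 lower, with none in either direction without WT mouse 3 or without B mouse 3. Of the 23 genes called only with the block, Top2a, Ect2, Kif20a and Mcm2 had a higher TE, and Saa3, Ces2b, Rdh16 and the ferritin chains Fth1 and Ftl1 a lower one. Saa3 had RNA levels of 17.4, 6.41 and 11.2 CPM in WT and 3.42, 4.35 and 4.43 CPM in B and RPF levels of 177, 33.6 and 195 CPM and 4.27, 6.14 and 6.19 CPM.

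The zonal changes were set beside those of day 10, on other mice. At day 10, zone 1 genes were lower for 25 of 38 in RNA and 28 of 38 in RPFs, where 7.48% and 12.1% of all genes were lower. The B effect was lower than at day 4 for 17 and 21 of 38 and higher for 3 and 3, against 5.02% and 8.8% of all genes lower and 4.3% and 8.39% higher. Hal changed by -0.23 at day 4 and by -5.55 at day 10, a difference of -5.32 (adjusted p = 5.5e-07), with RNA levels of 424, 383 and 342 CPM in WT and 4.89, 8.65 and 10.9 CPM in B at day 10. Cyp2f2 went from -0.64 to -5.26, Gls2 from -0.02 to -3.42, Sds from -0.14 to -3.92 and Etnppl from 0.23 to -4.67. Pck1 went the other way, from -1.73 to -0.40 (difference 1.32, adjusted p = 0.015). On the scale of both days, its RNA level in WT was 1291, 1913 and 1395 CPM at day 4 and 521, 565 and 553 CPM at day 10. In B it was 545, 326 and 522 CPM at day 4 and 536, 293 and 420 CPM at day 10, so the WT mice differed between days and the B mice overlapped.

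Zone 3 genes were split. Of 40, 29 in RNA and 26 in RPFs showed no called difference between days, among them Glul (0.50), Axin2 (0.35), Lgr5 (-0.25) and Cyp2e1 (-0.01). The effect was higher at day 10 for 5 in RNA, with Slc1a2 at 1.30 and then 4.19, and Rhbg at 1.65 and then 4.37. It was lower for 6, with Cyp2c29 at 0.99 and then -1.06, Cyp2c37 at 1.67 and then -0.32, and Ces1f at 0.30 and then -2.10. In RPFs the effect was higher at day 10 for 4 and lower for 10. The median difference of the list was -0.21 in RNA and -0.32 in RPFs. Over all genes, the effect was higher at day 10 in 4.3% and lower in 5.02% in RNA, and in 8.39% and 8.8% in RPFs. Among the 22 Wnt genes the difference was called for 1 in RNA, Fzd4, which was lower at day 10. In RPFs it was called for 4, of which 2 were higher and 2 lower. The same shares of all genes stand beside these counts, and the count in RNA is near its share.

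**Figure D5:**
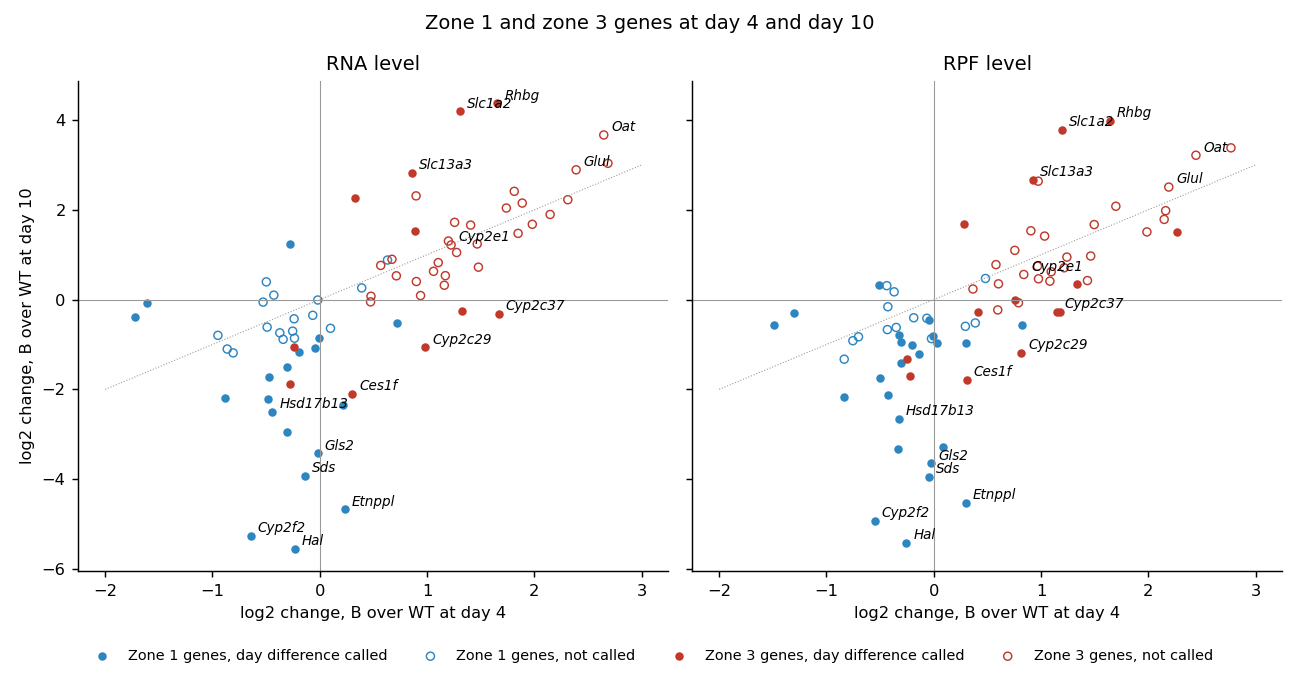
Log2 change of B over WT at day 4 (x axis) and day 10 (y axis) for zone 1 genes in blue and zone 3 genes in red, RNA at left and RPFs at right, filled where the difference between days was called and open where it was not. The dotted line marks equal change. Zone 1 genes such as Hal, Gls2 and Etnppl sit near 0 at day 4 and far below 0 at day 10, and zone 3 genes spread along the line with Slc1a2 and Rhbg above it and Cyp2c29 and Ces1f below it.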

How the data were processed

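Each liver gave a library of ribosome-protected fragments and one of cytoplasmic RNA. Per the labels and the study's methods, the authors trimmed reads with Cutadapt 1.18, collapsed PCR copies with UMI-tools, discarded reads of rRNA and tRNA, and aligned RPFs with BBmap to filtered GENCODE vM27 protein-coding transcripts, the most abundant one of each gene. The deposited RPF values are raw counts of fragments in coding sequences. For RNA, the authors aligned reads with Bowtie2 2.3.5.1 and RSEM 1.3.3, and the deposited values are expected counts per isoform. SAMtools 1.9, R 4.3.1 and DESeq2 also stand in the submitters' processing notes. The counting of the RPFs on 1 transcript per gene and of the RNA over all isoforms can shift TE where isoforms differ.

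Here expected counts were summed per gene and rounded to whole numbers. Groups came from the labels: 3 WT and 3 B mice of day 4, and, for the difference between days, 3 and 3 of day 10. Counts were tested with edgeR 4.0.16 (R 4.3.3, limma 3.58.1) by its two-sided quasi-likelihood test after TMM scaling and the filter filterByExpr on low counts (minimum count of 10, minimum total of 15), with Benjamini-Hochberg adjustment over all genes and a threshold of 0.1. TE was the interaction of library type and genotype in 1 model. The day difference was the interaction of day and genotype. The gene lists, members and tests were chosen with earlier results of these data known, and lists are described by counts and medians. Genes named by size were the 10 largest rises and falls per library type among called genes whose groups did not overlap, with a mean of at least 10 CPM in the higher group. Called TE genes and members of the lists were named too. Some genes that these rules select are not reported here. Afp, Dct and Cdh2 were taken from the lists or by their size. The code was tested on simulated data.

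The RPF and RNA libraries of a mouse deviated together from their group means (r = 0.234 to 0.453 across genes, over 0.1 in all 6 mice), and both came from the same animal by the labels, so TE with the mouse as a block is given too. WT and B mice of the same number are different animals. Alternatives were DESeq2 1.42.0, RLE size factors, other filters and thresholds, all genotypes in the fit, blocks and leaving out each mouse. Positions are from GENCODE vM39 on GRCm39, matched by gene.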

Additional observations from a re-analysis of the deposited data

Results flagged for a closer look

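The B effect differed between day 4 and day 10, tested by edgeR as the interaction of day and genotype over mice of both days, for the genes given here. Values are the log2 change of B over WT at day 10 minus that at day 4. In RNA, 495 genes had a higher effect at day 10 and 578 a lower one, and in RPFs 973 and 1021.

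Acute phase and related genes had a higher effect at day 10. In RNA the difference was 11.8 for Saa2, 10.6 for Saa1, 10.6 for Lcn2, 6.38 for Mt1, 5.96 for Scara5, 3.96 for Mt2, 3.63 for Fgl1, 2.54 for Saa3, 2.47 for Steap4, 2.29 for Nos1ap, 2.12 for Hp, 1.85 for Apcs and 1.59 for Lbp. In RPFs it was 10.1 for Saa2, 9.48 for Saa1, 9.84 for Lcn2, 7.76 for Mt2, 7.11 for Mt1, 7.01 for Saa3, 5.77 for Scara5, 3.4 for Nos1ap, 3.37 for Fgl1, 2.43 for Steap4, 1.82 for Lbp, 1.65 for Hp and 1.58 for Apcs. For Saa1 and Hp, the WT mice of day 4 lay above those of day 10 in RNA.

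Other genes differed too. Acot1 had a lower effect at day 10, by -2.3 in RNA and -2.63 in RPFs, and Acot3 by -2.13 in RPFs. Cyp2c55 differed by -2.08 and -2.18, Cyp2c40 by -0.69 and -2.13, and Igfbp2, a binding protein of insulin-like growth factors, by -1.35 and -1.47. Gls2, the glutaminase of zone 1, differed by -3.41 in RNA and -3.62 in RPFs. Ces2b, a carboxylesterase, had a higher effect at day 10 by 1.25 and 1.7, Atp11a by 3.21 in RNA, and Ccnd1, cyclin D1, by 1.69 in RPFs.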

How the results depend on the processing

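DESeq2, RLE size factors, other filters and the fit of all genotypes left the RNA and RPF counts of genes called within 1.5 times. A requirement of a 2-fold change gave 135 higher and 87 lower genes in RNA and 172 and 130 in RPFs, and a threshold of 0.05 gave 453 lower in RPFs. Leaving out 1 mouse gave 317 to 542 higher and 214 to 435 lower in RNA, and 407 to 702 and 359 to 653 in RPFs. For the difference between days it gave 349 to 581 higher and 382 to 751 lower in RNA, and 620 to 1148 and 678 to 1205 in RPFs.

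TE calls numbered 12 higher and 16 lower with the mouse as a block, 0 and 1 at a threshold of 0.05, 1 lower with all genotypes in the fit, 4 and 3 by DESeq2, and 0 to 3 and 0 to 4 without 1 mouse. For RNA and RPFs the mouse number as a block gave 486 and 439, and 637 and 663, but WT and B mice of 1 number deviated together only weakly (r = 0.00365 to 0.102 in RNA), so the numbers do not pair them. The block changed no other count by over 1.5 times. Mfsd2a, a lipid transporter, had an RPF change of 0.39 that was not called and was -1.94 without B mouse 3, and 0.91 without WT mouse 3; the cause was not tested. The depth of the libraries left genes of a few counts, such as Sp5 and Afp, with wide intervals.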

Other observations

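Among enzymes of amino acid breakdown, 5 of 48 tested in RNA were higher and 5 lower, against 4.41% and 3.73% of all genes tested. Of 49 in RPFs, 6 were higher and 6 lower, against 6.21% and 6.26%, and the list's median log2 change was -0.02 in RNA and -0.03 in RPFs. Prodh, proline dehydrogenase, went from 57.4, 51.5 and 67.3 CPM in WT to 112, 171 and 168 CPM in B in RNA, without overlap. Aldh4a1, the next enzyme of proline breakdown, and Hpd, of tyrosine breakdown, rose by 0.63 and 0.45. The lower ones included Uroc1 and Ftcd, of histidine breakdown (-0.48 and -0.49), Kmo, of tryptophan breakdown (-0.55), and Gldc, of glycine cleavage (-0.47).

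Among 23 hepatocyte transcription factors tested, 3 were lower and 1 higher in RNA, against 3.73% and 4.41% of all genes tested, and 3 were lower and none higher in RPFs, against 6.26% and 6.21%. Cebpb, a factor of the acute phase response, had 64.0, 49.3 and 60.1 CPM in WT and 38.2, 24.5 and 36 CPM in B, and RPF levels of 127, 114 and 118 CPM and 60.7, 42.0 and 74.9 CPM. Xbp1, a factor of the unfolded protein response, and Foxa3 fell to log2 changes of -0.55 and -0.76, and Tbx3 was the one that rose. Of the nuclear receptors of xenobiotics and hormones, 2 of 23 were higher and 2 lower in RNA, against 4.41% and 3.73% of all genes. In RPFs 4 of 22 were higher and 2 lower, against 6.21% and 6.26%, and the median was -0.01 in both library types. Among the lower ones, Esr1, the oestrogen receptor, fell to a change of -0.42 in RNA and -0.83 in RPFs, and Rxra to -0.39 and -0.43.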
